A study of Mus musculus with 9 samples.

Results

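Basement membranes are thin sheets of extracellular matrix that lie under epithelia and around other cells. Laminins, trimers of an alpha, a beta and a gamma chain, and collagen IV, a triple helix usually of alpha 1 and alpha 2 chains, each form a network, and nidogens and the proteoglycan perlecan link these networks. In the early mouse embryo the first basement membrane forms between the inner cell mass and the primitive endoderm, and endoderm cells make much of its laminin and collagen IV. The genes described here are Lama1 and Lamc1 (the alpha 1 and gamma 1 chains of laminin), Col4a1 and Col4a2 (the collagen IV chains), Nid1 and Nid2 (the nidogens), Hspg2 (perlecan) and Sparc (a matrix glycoprotein that binds collagen IV). They were chosen by gene symbol, and all 8 were found among the 24132 symbols of the deposited table. Levels are given as RPKM, which are reads scaled to the length of the transcript and to the mapped reads of the library, so that they can be set side by side between genes. All 8 passed the filter on low values (2 or more libraries with an RPKM of 1 or higher), and 9787 genes did so in all.

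The libraries came from RIPiT-seq, in which RNA bound to a tagged protein is recovered through 2 purifications in series, here through FLAG and then HA, from formaldehyde-fixed mouse embryonic stem cells (ESCs). The ESCs were of a 129/B6 F1 hybrid strain, were grown with LIF and without feeder cells, were selected with puromycin, and kept their own Wdr5. WDR5 is a subunit of the MLL histone methyltransferase complexes, and the F266A mutant, with a phenylalanine replaced by alanine, served as a form that does not bind long noncoding RNA. The design asks which RNAs come down with WDR5 WT but not with the mutant or without a tagged protein.

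The 3 lines carried an empty vector, FLAG-HA-tagged human WDR5 WT, or FLAG-HA-tagged human WDR5 F266A, whose construct was shorter at its N terminus. Each line had 1 input library of total RNA and 2 IP libraries. By the methods, the WT and F266A lines were each an isolated clone chosen for a tagged protein level near that of endogenous WDR5, so that a difference between lines cannot be told apart from a difference between clones. No source used here says that the IP replicates came from separate cultures, so p-values measure the spread between these libraries, which may be technical.

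The sequences shown next come from the members whose position or promoter the results return to. Col4a1 (chr8:11198423-11312826, minus strand) and Col4a2 (chr8:11312805-11449287, plus strand) lie head to head on mm9, and their annotated first exons share 22 bases at chr8:11312805-11312826. These 22 bases, written on the plus strand, are the only exonic sequence that both genes hold, and reads there could count for either.
Col4a1 and Col4a2 overlap: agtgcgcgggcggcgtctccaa
The other members lie on 6 different chromosomes, namely Lamc1 on chr1:155066052-155179916, Hspg2 on chr4:137024634-137126545, Sparc on chr11:55208002-55233582, Nid1 on chr13:13529869-13604542, Nid2 on chr14:20570479-20631009 and Lama1 on chr17:68046605-68171985 (mm9, GENCODE M1). Sparc was above and Nid1 below every empty vector and WT library in the F266A input and IP replicate 2. Each of the other members also lay above or below all of them there, so this does not single out Sparc and Nid1. In F266A IP replicate 1 Sparc was the lowest of all libraries, at an RPKM of 12.2. The 250 bases before the start sites of Sparc and Nid1, from RefSeq on GRCm38.p6, are printed as an example of each direction. The Sparc sequence is chr11:55420081-55420330 on the minus strand, and the Nid1 sequence is chr13:13437352-13437601 on the plus strand. Capitals mark a CCAAT box, read here on the opposite strand as ATTGG, and a GC box (GGGCGG).
Sparc: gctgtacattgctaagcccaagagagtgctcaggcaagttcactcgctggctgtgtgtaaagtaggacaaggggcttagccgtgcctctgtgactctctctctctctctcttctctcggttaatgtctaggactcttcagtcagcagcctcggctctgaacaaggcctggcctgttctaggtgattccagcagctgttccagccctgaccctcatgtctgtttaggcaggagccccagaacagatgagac
Nid1: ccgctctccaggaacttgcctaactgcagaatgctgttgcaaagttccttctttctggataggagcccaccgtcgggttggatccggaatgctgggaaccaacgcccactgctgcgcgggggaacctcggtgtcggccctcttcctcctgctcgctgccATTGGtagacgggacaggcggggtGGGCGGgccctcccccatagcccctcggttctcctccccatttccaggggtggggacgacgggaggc

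RefSeq promoter windows of 300 bases, 250 before and 50 after the start, matched 5 of the 8 members, namely Col4a1, Col4a2, Nid1, Hspg2 and Sparc. They were searched on both strands for the GC box (GGGCGG), the CCAAT box named by its letters, a GATA motif spelled AGATAA, a SOX motif spelled ACAAT and an AP-1 motif spelled TGACTCA. Of all 32851 windows, 35.7% held the GC box, 37.4% the CCAAT box, 11.2% the GATA motif, 31.0% the SOX motif and 5.20% the AP-1 motif. The Col4a1 window held 1 GC box and 1 CCAAT box, the Col4a2 window 3 and 1, the Nid1 window 1 and 1, and the Hspg2 window 5 and 0. The Col4a1 and Col4a2 windows overlap, so that their matches are partly the same letters. The Sparc window held none of the 5 motifs, and no member's window held the GATA, SOX or AP-1 motif.

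The library labelled F266A IP replicate 1 stood apart from the other F266A libraries, and whether it came from the same clone and culture as they did was not tested. The summed RPKM of the Y-linked genes Ddx3y, Uty and Eif2s3y was 4.43 in the F266A input and 7.21 in F266A IP replicate 2, but 0.0383 in replicate 1. This sum was 7.41 to 9.48 in the empty vector libraries and 0.182 to 0.324 in the WT libraries. Over the 497 tested genes of chromosome 8, the median deviation from the mean of the empty vector and WT libraries of the same fraction was 0.37 (log2) in the F266A input and 0.41 in IP replicate 2, but 0.02 in replicate 1. It was -0.01 to 0.01 in the empty vector and WT libraries, and the medians of the other autosomes lay between -0.05 and 0.04 in the F266A libraries. The empty vector and WT libraries are part of the mean they are set against, which draws their values towards 0. The other autosomes of the F266A libraries do not have this limit. The RPKM of Wdr5 was 8.05 to 10.5 in the empty vector, 9.54 to 12.9 in the WT and 5.85 to 8.79 in the F266A libraries. Depths estimated from the value of a single read ranged from 13400000 to 50200000 mapped reads. The tests of the members are therefore given with and without F266A IP replicate 1.

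Of the members, the collagen IV chains had the widest range of levels over the lines as a fold, though not in RPKM units, where that of Sparc was wider. Both chains were low in empty vector and WT cells and high in the F266A input and F266A IP replicate 2, with intermediate levels in F266A IP replicate 1. In the empty vector line the input had a Col4a1 RPKM of 0.279 and the IPs had 0.326 and 0.486. It was 0.301, 0.731 and 0.506 in the WT line, and 5.40, 1.03 and 6.98 in the F266A line, in the same order. All 3 F266A libraries lay above the 6 others, and F266A IP replicate 1 was nearer to WT IP replicate 1 than to the other F266A libraries.
The RPKM of Col4a2 was 0.310, 0.535 and 0.284 in the empty vector line, 0.318, 1.06 and 0.409 in the WT line, and 6.82, 1.51 and 9.14 in the F266A line. The groups again did not overlap, and the order of the F266A libraries was that of Col4a1. Against the mean of the empty vector and WT inputs, Col4a1 was 18.6-fold and Col4a2 21.7-fold higher in the F266A input. Against the mean of the 4 empty vector and WT IPs, they were 13.6-fold and 16.0-fold higher in F266A IP replicate 2, and 2.0-fold and 2.64-fold higher in replicate 1. The low levels rested on few reads, an estimated 44 to 136 for Col4a1 and 25 to 191 for Col4a2 in the empty vector and WT libraries, against 1381 and 1694 in the F266A input. These libraries hold RNA of whole cultures, so that fewer cells of a type and less RNA per cell cannot be told apart.

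Col4a1 and Col4a2 passed the filter on low values only through the F266A libraries, so that the filter selected them for being high there, and their limma values are given as descriptions that support nothing. With all 9 libraries and terms for line and fraction, the limma difference of Col4a1 between F266A and the empty vector line was 1.79 ± 0.41 (SE; log2 (RPKM + 1), adjusted p = 0.0148 after Benjamini-Hochberg adjustment over all genes tested). That of Col4a2 was 2.09 ± 0.42 (limma adjusted p = 0.00856). Against WT the differences were 1.64 ± 0.41 (limma adjusted p = 0.0308) and 1.90 ± 0.42 (limma adjusted p = 0.0196). With no filter on low values the differences were the same, Col4a1 missed the threshold in both comparisons (limma adjusted p = 0.0648 and 0.120), and Col4a2 had 0.0471 against the empty vector and missed it against WT (0.0929). In fits that left out F266A IP replicate 1 they were 2.43 ± 0.11 and 2.74 ± 0.16 against the empty vector and 2.29 ± 0.11 and 2.56 ± 0.16 against WT, with limma adjusted p of at most 0.00011.
Other libraries also decided calls. Against the empty vector, Col4a1 missed the threshold without the empty vector input (1.68, limma adjusted p = 0.0695), without empty vector IP replicate 1 (1.78, 0.0564) and without the F266A input (1.49, 0.0866), and Col4a2 without the F266A input (1.80, 0.0574). Against WT, Col4a1 missed it without empty vector IP replicate 1 (1.64, limma adjusted p = 0.0523), WT IP replicate 1 (1.77, 0.0545), WT IP replicate 2 (1.66, 0.0765), F266A IP replicate 2 (1.21, 0.0844), the WT input (1.45, 0.156) or the F266A input (1.35, 0.161). Against WT, Col4a2 missed it without F266A IP replicate 2 (1.46, 0.0535), WT IP replicate 2 (1.83, 0.0629), the WT input (1.69, 0.116) or the F266A input (1.61, 0.118).

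The laminin chains and Sparc were higher in 2 of the 3 F266A libraries only, and by less than collagen IV. The RPKM of Lama1 was 3.07, 3.38 and 3.56 in the input and IPs of the empty vector line, 2.57, 2.76 and 3.41 in the WT line, and 5.54, 2.67 and 6.59 in the F266A line. The F266A input and IP replicate 2 lay above all 6 empty vector and WT libraries, and F266A IP replicate 1 lay within them.
Lamc1, the gamma chain of most laminins, had RPKM of 13.0, 14.7 and 14.6 in the empty vector line, 11.9, 13.8 and 14.2 in the WT line, and 16.0, 14.6 and 19.7 in the F266A line. Here too the F266A input and IP replicate 2 were the 2 highest libraries, 1.29-fold and 1.38-fold above the mean of the others of their fraction, and replicate 1 overlapped with the empty vector line.
Sparc had the highest mean RPKM of the members over the 9 libraries, 19.9. Its RPKM was 16.0, 20.9 and 18.4 in the empty vector line, 14.9, 16.8 and 18.2 in the WT line, and 28.5, 12.2 and 33.6 in the F266A line. The F266A input and IP replicate 2 were 1.84-fold and 1.81-fold above the mean of the others, and replicate 1 was the lowest of all 9 libraries.

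With all libraries these 3 genes did not pass the test in either comparison. The limma differences from the empty vector line were 0.39 ± 0.22 for Lama1 (adjusted p = 0.264), 0.23 ± 0.11 for Lamc1 (adjusted p = 0.167) and 0.30 ± 0.29 for Sparc (adjusted p = 0.529). Those from WT were 0.54 ± 0.22, 0.31 ± 0.11 and 0.43 ± 0.29 (limma adjusted p = 0.161, 0.0946 and 0.401). Without F266A IP replicate 1, all 3 were higher in F266A than in the empty vector line, by 0.73 ± 0.09, 0.35 ± 0.08 and 0.76 ± 0.09 (limma adjusted p = 0.00072, 0.0108 and 0.000568). In the same fit they were higher than in WT by 0.88, 0.43 and 0.90 (limma adjusted p = 0.000541, 0.00634 and 0.000459).
Lamb1, the beta chain that completes laminin-111 with the products of Lama1 and Lamc1, had RPKM of 4.06, 4.64 and 4.77 in the empty vector line, 4.73, 4.53 and 5.15 in the WT line, and 4.11, 2.69 and 5.92 in the F266A line. Its F266A input lay among the other inputs, while its F266A IPs were the lowest and the highest of the 9 libraries. Its limma difference between F266A and the empty vector was -0.11 ± 0.18 (adjusted p = 0.723), and 0.15 ± 0.10 without F266A IP replicate 1 (adjusted p = 0.325).

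Hspg2 was the member for which the F266A IPs were most alike, with a gap of 0.02 in log2 (RPKM + 1). Its RPKM was 5.24, 4.42 and 5.02 in the empty vector line, 5.32, 5.36 and 5.77 in the WT line, and 7.20, 7.30 and 7.44 in the F266A line. All F266A libraries, replicate 1 included, lay above the 6 others, by 1.36-fold to 1.45-fold over the mean of their fraction. Hspg2 was higher in F266A than in the empty vector line by 0.50 ± 0.08 (limma adjusted p = 0.00321) and than in WT by 0.36 ± 0.08 (limma adjusted p = 0.0230). Leaving out F266A IP replicate 1 gave 0.50 and 0.36 (limma adjusted p = 0.00436 and 0.0252). The call against WT was lost without the WT input (0.32, limma adjusted p = 0.136), F266A IP replicate 2 (0.34, 0.0775) or the F266A input (0.38, 0.0779).

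The nidogens went the other way. The RPKM of Nid1 was 5.82, 7.80 and 6.68 in the empty vector line, 7.06, 7.93 and 7.78 in the WT line, and 2.90, 4.95 and 4.33 in the F266A line. The RPKM of Nid2 was 11.2, 14.5 and 14.1 in the empty vector line, 12.7, 14.6 and 17.1 in the WT line, and 7.30, 10.1 and 10.9 in the F266A line. For both genes all 3 F266A libraries lay below the 6 others, at 0.450-fold to 0.656-fold for Nid1 and 0.612-fold to 0.724-fold for Nid2. Nid1 was lower in F266A by -0.63 ± 0.10 against the empty vector (limma adjusted p = 0.00299) and -0.78 ± 0.10 against WT (limma adjusted p = 0.00204). Nid2 was lower by -0.46 ± 0.09 (limma adjusted p = 0.00718) and -0.60 ± 0.09 (limma adjusted p = 0.00328). Neither gene lost a call in either comparison when any 1 library was left out, with differences from -0.72 to -0.52 and from -0.87 to -0.67 for Nid1, and from -0.50 to -0.40 and from -0.67 to -0.55 for Nid2.

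**Figure D1:**
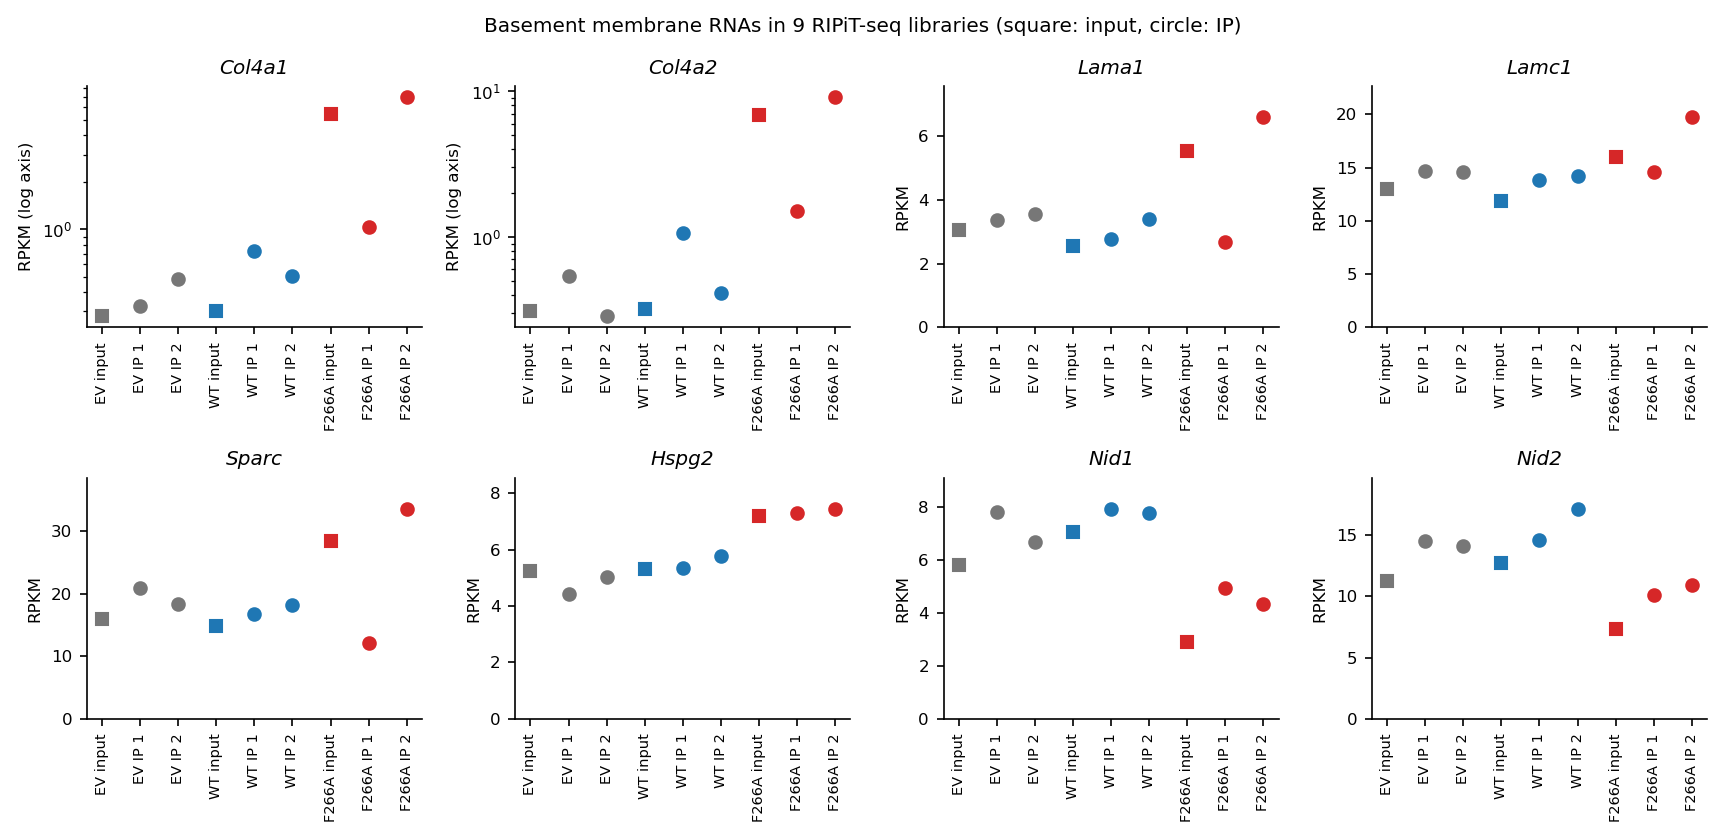
RPKM of the 8 basement membrane genes in each of the 9 libraries (squares, inputs; circles, IPs; grey, empty vector; blue, WDR5 WT; red, WDR5 F266A), on a log axis for Col4a1 and Col4a2 and a linear axis from 0 for the others. Col4a1, Col4a2 and Hspg2 are above and Nid1 and Nid2 below the empty vector and WT libraries in all 3 F266A libraries, while Lama1, Lamc1 and Sparc are above them in the F266A input and IP replicate 2 only.

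Counted over the members, 5 of 8 passed the threshold in each F266A comparison, 3 higher (Col4a1, Col4a2, Hspg2) and 2 lower (Nid1, Nid2). Of all genes tested, 16.7% passed between F266A and the empty vector, 5.45% higher and 11.3% lower. Between F266A and WT 9.97% passed, 2.72% higher and 7.25% lower. The 2 comparisons share the F266A libraries, so that their calls are not independent. Col4a1 reached an RPKM of 1 in the F266A libraries alone, and Col4a2 in these and 1 WT IP. Both therefore passed the filter only through F266A and were selected for being high there, so that their calls and the counts over members are descriptions. The members' median difference was 0.34 against the empty vector and 0.40 against WT, and the median over all genes tested was -0.04 in both. The split of calls over all genes depended on the scaling. Against the empty vector 32.6% of the calls were higher in F266A as deposited, 40.4% with libraries centred on their medians, 50.6% after quantile normalization, and 55.7% when each library was set to an equal share of gene reads. Against WT these shares were 27.3%, 35.7%, 44.0% and 43.4%. The members' own split of 3 higher and 2 lower was the same under each of these scalings.
Without F266A IP replicate 1, 8 of 8 members passed in both comparisons, 6 higher and 2 lower, beside 25.9% of all genes tested against the empty vector (8.76% higher, 17.1% lower) and 18.4% against WT (5.80% higher, 12.6% lower). With the IP libraries alone, Hspg2 (0.55, limma adjusted p = 0.0400) and Nid1 (-0.54, 0.0489) passed against the empty vector, beside 4.57% of all genes, and no member passed against WT, where 1.16% of all genes did and Nid1 came nearest (-0.65, 0.0547). Non-overlap of all 3 F266A libraries with the 6 others, above them for 3 members and below them for 2, was met by 2.66% and 6.79% of all genes tested. With the F266A input and IP replicate 2 alone, 6 members lay above and 2 below the 6 others, beside 4.36% and 12.9%.

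Between WT and the empty vector, 0 of 8 members passed, in a comparison in which 0.174% of all genes tested passed. The members' differences ranged from -0.15 to 0.19 with SEs of 0.08 to 0.42, limma adjusted p from 0.678 to 0.961, and a median of 0.14. With F266A IP replicate 1 left out, 0 of 8 passed beside 0.623% of all genes, over the same range of differences (limma adjusted p from 0.474 to 0.666). The SE was 0.08 for Hspg2 and 0.42 for Col4a2, so that the interval of the difference was wide for collagen IV.

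**Figure D2:**
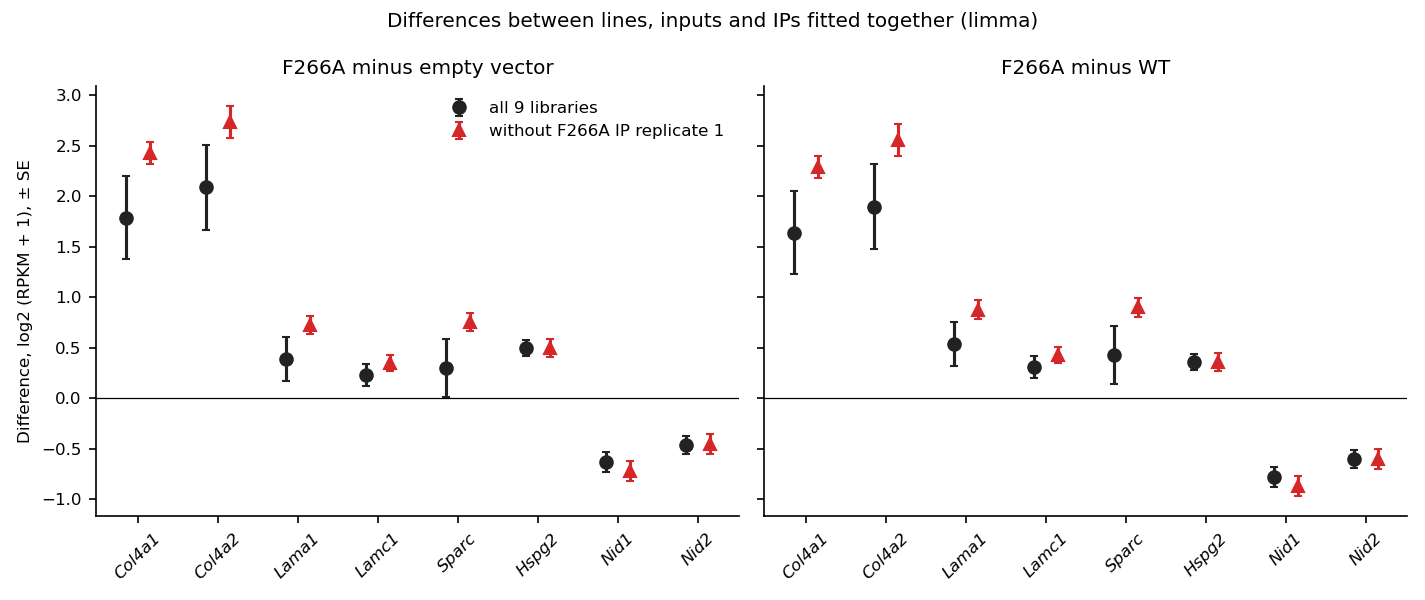
Difference between lines in log2 (RPKM + 1) from limma for each member, F266A minus empty vector (left) and F266A minus WT (right), with bars for ± SE; black circles are fits with all 9 libraries and red triangles fits without F266A IP replicate 1. Leaving out that library moved Col4a1 from 1.79 to 2.43 and Sparc from 0.30 to 0.76 against the empty vector, and left Hspg2 at 0.50.

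The gap between the F266A IPs was itself among the largest of the table for some members. On the log2 (RPKM + 1) scale IP replicate 2 exceeded replicate 1 by 2.02 for Col4a2, 1.98 for Col4a1, 1.40 for Sparc and 1.05 for Lama1, and only 2, 3, 29 and 71 of the genes tested had a larger gap in either direction. The median absolute gap over all genes tested was 0.16. For Lamc1 the gap was 0.41, and for Hspg2, Nid1 and Nid2 it was 0.02, -0.16 and 0.10. In the empty vector and WT lines the same gap lay between -0.55 and 0.23 for all members.

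Other measures moved with the collagen IV chains across the libraries. The summed RPKM of 12 primitive endoderm markers, among them the transcription factors Gata4, Gata6 and Sox17 and the endocytic proteins Dab2, Cubn and Lrp2, was 1.34 to 1.49 in the empty vector line and 1.06 to 1.74 in the WT line. The F266A input had 11.0, IP replicate 1 had 4.48 and IP replicate 2 had 15.2. Within the F266A line Lrp2 did not follow this order, with an RPKM of 1.35 in the input, 2.13 in IP replicate 1 and 1.41 in IP replicate 2. It thus made up 2.13 of the sum of 4.48 in replicate 1. All 12 markers were highest among the inputs in the F266A input, 12 were higher in F266A IP replicate 2 than in the 4 empty vector and WT IPs, and 8 were so in replicate 1. Of the 20431 symbols above 0 in any library, 27.4%, 25.6% and 26.0% met these 3 conditions. Only Gata4, Dab2, Cubn and Lrp2 passed the filter on low values, and they did so only through the F266A libraries, so that the filter selected them for being high there and their number supports nothing. Their limma differences are given as descriptions, for example Gata4 was higher by 1.20 ± 0.23 against the empty vector (limma adjusted p = 0.00718) and Dab2 by 1.60 ± 0.34 (limma adjusted p = 0.0103). Without F266A IP replicate 1 these values were 1.54 and 2.11 (limma adjusted p = 0.000154 and 0.000104). The RPKM of Gata6 was at most 0.0466 in the empty vector and WT libraries, 0.777 in the F266A input, 0.0615 in IP replicate 1 and 0.936 in replicate 2.
Of 8 ESC markers, 4 were lower in F266A than in the empty vector line and none was higher, beside 11.3% lower and 5.45% higher of all genes tested, with Pou5f1 at -0.71 ± 0.13 (limma adjusted p = 0.00626) and Nanog at -0.53 ± 0.10 (limma adjusted p = 0.00566), and Nanog alone was lower than in WT (-0.65, limma adjusted p = 0.00364), where 7.25% of all genes were lower. With F266A IP replicate 1 left out, Sox2 passed as well against the empty vector (-0.46, limma adjusted p = 0.0379), beside 17.1% of all genes lower, and Pou5f1 and Nanog were at -0.54 and -0.58. The summed RPKM of the 8 ESC markers was 500.0 to 679 in the empty vector line, 462 to 569 in the WT line and 417 to 553 in the F266A line. Dppa5a, at 222 to 336, was the largest part of it, so that the sum says little of the others. Pou5f1 was at 36.3 or higher and Nanog at 4.70 or higher in every library, so that RNA of both was present in each.
Markers of other cells that make basement membrane were low in sum. The sum of 6 parietal endoderm markers lay between 0.575 and 1.29, with none of the 6 tested. Of these, 4 were highest among the inputs in the F266A input, 1 was above the 4 empty vector and WT IPs in F266A IP replicate 2 and 3 were so in replicate 1, beside the 27.4%, 25.6% and 26.0% of all symbols. The highest in mean RPKM was the keratin gene Krt19, with 0.210, 0.912 and 0.295 in the F266A input and IPs and 0.270 to 0.910 in the empty vector and WT libraries, and next came Fst, which encodes follistatin, with 0.133, 0.0627 and 0.173 against 0.0695 to 0.176. Pth1r, a hormone receptor gene chosen after its values were seen, had 0.494, 0.0358 and 0.285 against 0.0295 to 0.0668. The sum of 8 fibroblast markers lay between 0.498 and 1.69 with Col3a1, Dcn and Lum at 0 in all libraries and Col1a1 at most 0.0638. For 5 endothelial markers the sum was 0.338, 0.532 and 0.380 in the F266A input and IPs. It was higher, 0.572 to 1.27, in the empty vector and WT libraries. The part of the endoderm markers in the members' differences was not tested.

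Position moved with the result as well. On chromosome 8, which holds Col4a1 and Col4a2, 109 of 497 tested genes (21.9%) were higher in F266A than in the empty vector line and 7 were lower (limma adjusted p under 0.05), against 4.56% higher and 11.9% lower of the 8424 tested genes placed on other chromosomes. When F266A IP replicate 1 was left out, the share higher on chromosome 8 was 49.5%, against 6.59% elsewhere. The median difference of the 497 chromosome 8 genes was 0.22. Those of Col4a1 and Col4a2, which are among the 497, were 1.79 and 2.09. The part of chromosome 8 in the collagen IV difference was not tested.

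**Figure D3:**
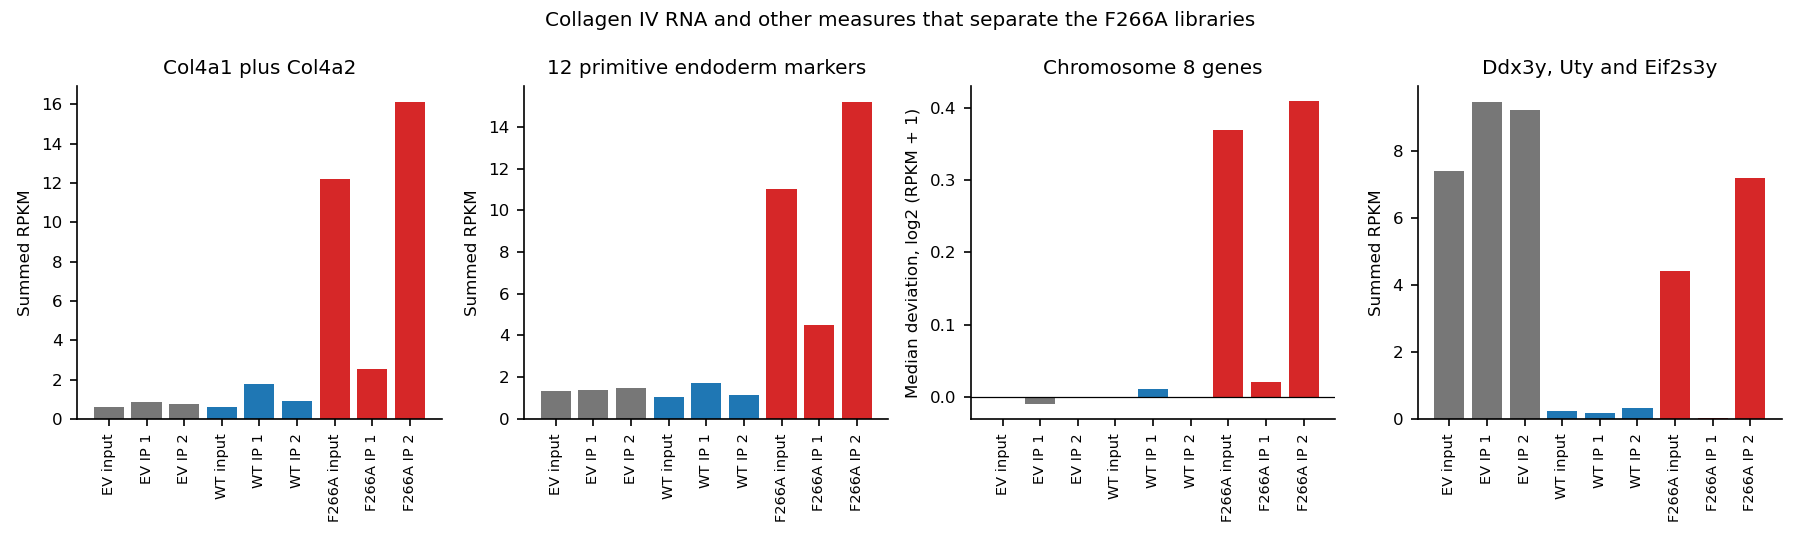
Summed RPKM of Col4a1 and Col4a2, summed RPKM of 12 primitive endoderm markers, median deviation of 497 chromosome 8 genes (log2 (RPKM + 1)) and summed RPKM of 3 Y-linked genes, with a bar for each library (grey, empty vector; blue, WT; red, F266A). In the first 3 panels the F266A input and IP replicate 2 are the highest, and in all 4 panels F266A IP replicate 1 is far below them.

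Most other genes of the basement membrane were too low to test, and Col18a1, Fbln1 and Smoc1 passed in at least 1 comparison, beside 16.7% of all genes against the empty vector and 9.97% against WT. Of 9 other laminin chains 3 were tested and 0 passed in either comparison. The highest were Lama5, the main alpha chain of many adult epithelia, with a mean RPKM of 4.09 and a limma difference of -0.01 ± 0.09 from the empty vector (adjusted p = 0.941), and Lamb1, given above. Of 6 other basement membrane collagens only Col18a1 was tested, and its RPKM was 7.17, 7.92 and 8.03 in the empty vector line, 7.50, 9.78 and 8.61 in the WT line, and 3.45, 8.09 and 4.01 in the F266A line. The F266A input and IP replicate 2 were the 2 lowest libraries, and replicate 1 lay among the others, so that Col18a1 was the mirror image of Lama1. Col18a1 was lower in F266A than in WT (-0.71 ± 0.19, limma adjusted p = 0.0429), with a difference of -0.57 from the empty vector (adjusted p = 0.0662). With F266A IP replicate 1 left out it was lower in both comparisons (-0.85 and -0.99, limma adjusted p = 0.000325 and 0.000302).
Of 13 other glycoproteins and proteoglycans 3 were tested. Fbln1, which encodes fibulin-1, was lower than in the empty vector line (-0.66 ± 0.10, limma adjusted p = 0.00210), and Smoc1, which encodes a relative of Sparc, was lower than in WT (-0.56 ± 0.14, limma adjusted p = 0.0278). When F266A IP replicate 1 was left out, both were lower in both comparisons, Fbln1 by -0.71 and -0.40 and Smoc1 by -0.53 and -0.66 (limma adjusted p = 0.00168, 0.0302, 0.0220 and 0.0124). Both genes passed the filter on low values only through the empty vector and WT libraries, so that the filter selected them for being high there and their differences are descriptions that support nothing. Agrn, which encodes the proteoglycan agrin, had a difference of -0.10 ± 0.12 from the empty vector (limma adjusted p = 0.602).

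Of 14 genes for the folding and modification of collagen 11 were tested. Only the lysyl hydroxylase gene Plod1 passed, lower than in the empty vector line (-0.47 ± 0.13, limma adjusted p = 0.0352), beside 11.3% of all genes lower and 5.45% higher. Serpinh1, which encodes the collagen chaperone HSP47, had RPKM of 2.07, 2.52 and 3.29 in the empty vector line, 1.94, 3.11 and 2.58 in the WT line, and 7.03, 2.40 and 8.81 in the F266A line. Its F266A input and IP replicate 2 lay well above the 6 others and replicate 1 within them, the pattern of Lama1. Serpinh1 did not pass with all libraries (0.84 ± 0.33 against the empty vector, limma adjusted p = 0.106). Without F266A IP replicate 1, Serpinh1 (1.36), the prolyl hydroxylase gene P4ha2 (0.63) and Plod2 (0.40) were higher than in the empty vector line (limma adjusted p = 0.000123, 0.00250 and 0.0112), no gene of the list was lower, and Serpinh1 and P4ha2 were higher than in WT (1.40 and 0.45, limma adjusted p = 0.000183 and 0.0165). In those fits 8.76% of all genes were higher and 17.1% lower than in the empty vector line, and 5.80% were higher than in WT.
Of 13 receptor genes 8 were tested, and 2 integrin genes were higher in F266A than in the empty vector line, beside 5.45% of all genes tested, Itga3 by 0.62 ± 0.12 (limma adjusted p = 0.00770) and Itgb1 by 0.57 ± 0.13 (limma adjusted p = 0.0141). Leaving F266A IP replicate 1 out gave 0.51 and 0.71 (limma adjusted p = 0.0127 and 0.00240), beside 8.76% of all genes higher. Neither passed against WT with all libraries. Without F266A IP replicate 1, Itgb1 was higher than in WT (0.52, limma adjusted p = 0.0140) and Ddr1, a collagen receptor gene, was lower (-0.42, limma adjusted p = 0.0198). In that fit 5.80% of all genes were higher and 12.6% lower. Ddr1 passed the filter on low values through the empty vector and WT libraries, so that it was selected for being high there. Its difference is a description that supports nothing. The RPKM of Itgb1, the beta chain of most laminin and collagen receptors, was 4.49, 6.37 and 6.45 in the empty vector line, 4.54, 8.99 and 7.07 in the WT line, and 7.83, 8.40 and 11.0 in the F266A line. The WT IPs thus lay between those of the other lines or within them.

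The IPs were next compared with the inputs, the contrast for which the experiment was made. Over the 3 lines, 64.3% of all genes tested differed between IPs and inputs, nearly all higher in the IPs (63.8%), and the median difference over all genes was 0.30. Of the members only the nidogens passed, Nid1 by 0.31 ± 0.09 (limma adjusted p = 0.0131) and Nid2 by 0.37 ± 0.08 (limma adjusted p = 0.00309), a shift near that of the median gene. The other 6 members differed by -0.08 to 0.15. After the libraries were centred on their medians, the nidogens no longer passed, and Hspg2 passed as lower in the IPs (-0.32 ± 0.07, limma adjusted p = 0.0223). Without the F266A input Nid1 did not pass (0.20, limma adjusted p = 0.117). Without F266A IP replicate 1, 5 members passed, with Lamc1 (0.22), Col4a1 (0.25) and Sparc (0.24) beside the nidogens (0.27 and 0.37), where 67.4% of all genes did (66.8% higher).

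The enrichment score of an IP was its log2 (RPKM + 1) minus that of the input of the same line, so that both scores of a line share an unreplicated input. For Col4a1 the scores were 0.05 and 0.22 in the empty vector line, 0.41 and 0.21 in the WT line, and -1.66 and 0.32 in the F266A line. For Col4a2 they were 0.23 and -0.03, 0.64 and 0.10, and -1.64 and 0.37. Only F266A IP replicate 1 departed from the others, with scores of -0.83 for Lama1 and -1.16 for Sparc as well. Since this library was unlike the F266A input in Y-linked and chromosome 8 genes, its scores are differences between 2 unlike libraries and cannot be read as enrichment or depletion by the IP.
For Nid1 the scores were 0.37 and 0.17 in the empty vector line, 0.15 and 0.12 in the WT line, and 0.61 and 0.45 in the F266A line. Here the F266A IPs had the highest and the WT IPs the lowest scores. For Nid2 they were 0.35 and 0.31, 0.19 and 0.41, and 0.43 and 0.52, again with both F266A IPs above the other 4. The median score over all genes tested was also higher in the F266A IPs (0.39 and 0.35) than in the other 4 (0.26 to 0.27). The order of the nidogen scores is therefore not read as particular to them, and the limit on F266A IP replicate 1 holds here too.
For Hspg2 the scores were -0.20 and -0.05 in the empty vector line, 0.01 and 0.10 in the WT line, and 0.02 and 0.04 in the F266A line. For Lamc1 they were 0.16 and 0.16, 0.20 and 0.24, and -0.12 and 0.28. The median score over all genes tested was 0.26 to 0.39 in the 6 IPs, and the median over the 8 members was 0.17 to 0.30 in 5 IPs and -0.48 in F266A IP replicate 1.

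The study called an RNA WDR5-bound when its lower WT score was positive and above all scores of the empty vector and F266A. Its scores used log2 RPKM over a merged set of RefSeq, UCSC and lincRNA transcripts, whereas the rule was applied here to log2 (RPKM + 1) of RefSeq symbols, so that the genes that meet it need not be the same. No member met the rule as applied here, which 4.79% of all 24132 symbols and 5.29% of the genes tested met. The nearest were Hspg2, with a lower WT score of 0.01 against a highest control score of 0.04, and Lamc1, with 0.20 against 0.28. In limma no member's enrichment differed between lines, and none of the 9787 genes passed in any of the 3 comparisons. At an unadjusted limma p under 0.05 there were 259 genes for WT minus F266A, 173 for WT minus empty vector, and 243 for F266A minus empty vector. Each count is below a share of 0.05 of the 9787 genes, the share due if no gene differed, so none is read as a signal. Nor does the lack of calls show that enrichment was equal. The members' differences ranged from -0.39 to 1.0 for WT minus F266A, from -0.13 to 0.27 for WT minus empty vector, and from -0.81 to 0.26 for F266A minus empty vector, with SEs of 0.20 to 0.93. These ranges turned on which F266A IP was kept. Without F266A IP replicate 1 the range for WT minus F266A was -0.32 to 0.01. With that library as the only F266A IP, the differences were 2.01 for Col4a2, 1.97 for Col4a1, 1.38 for Sparc and 1.02 for Lama1. Both of these fits took their spread from the empty vector and WT IPs alone, so no conclusion is drawn from either.

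**Figure D4:**
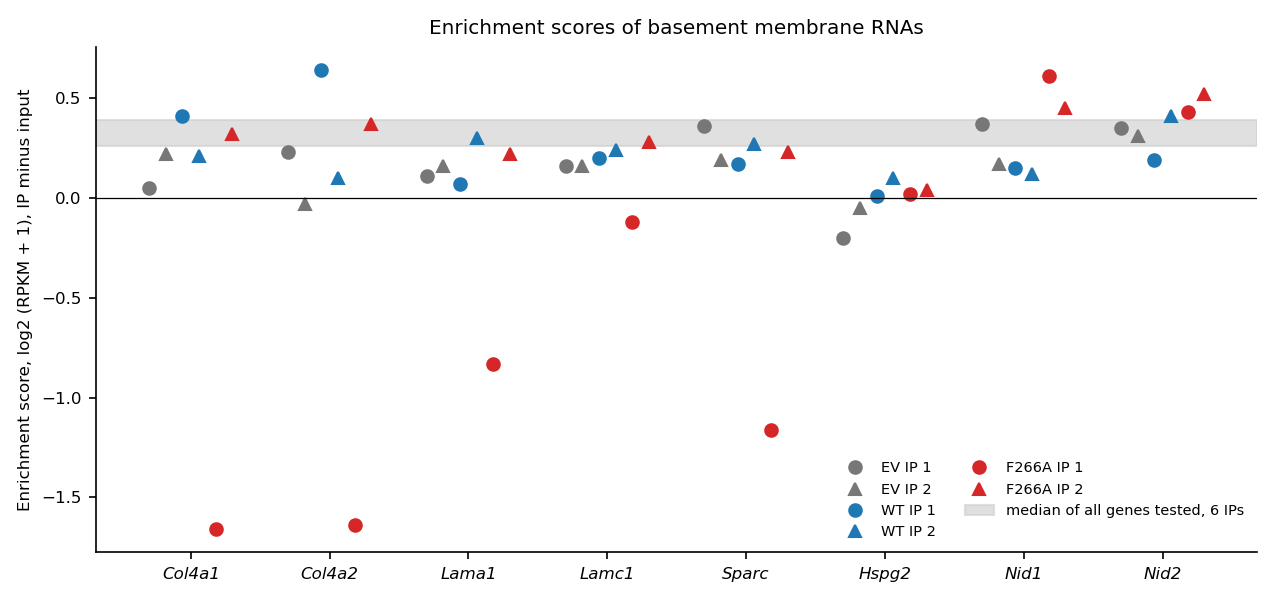
Enrichment scores, log2 (RPKM + 1) of each IP minus the input of its line, for the 8 members (circles, IP replicate 1; triangles, IP replicate 2; grey, empty vector; blue, WT; red, F266A), with the range of the medians over all genes tested shaded (0.26 to 0.39). F266A IP replicate 1 lies at -1.66, -1.64, -0.83 and -1.16 for Col4a1, Col4a2, Lama1 and Sparc, and every other score lies between -0.20 and 0.64.

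Across the 9 libraries the members fell into those that varied with collagen IV and those that varied against it. Pearson's r on log2 (RPKM + 1) was 0.99 between Col4a1 and Col4a2, 0.96 between Lama1 and Sparc, 0.95 between Nid1 and Nid2, and 0.89 between Lama1 and Lamc1. It was -0.83 between Nid1 and each collagen IV chain and -0.80 between Nid1 and Hspg2. Hspg2 followed collagen IV (0.81 with both chains) more than Sparc (0.33). These are descriptions over 9 libraries of 3 lines, which fall into separate groups, and they largely restate the F266A libraries' position. Over the 8 libraries without F266A IP replicate 1, r was 0.98 between Lama1 and Sparc, 0.92 between Hspg2 and Col4a1 and 0.76 between Hspg2 and Sparc, so that the low value for the last pair rested on that library.

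**Figure D5:**
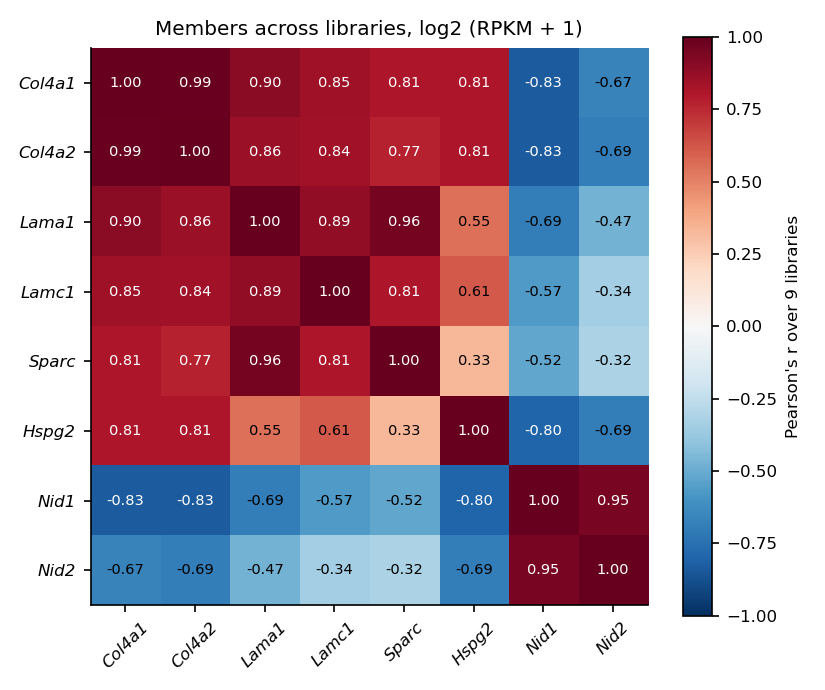
Pearson's r between members over the 9 libraries on log2 (RPKM + 1), from blue (-1) through white (0) to red (1). Nid1 and Nid2 correlate at 0.95 with each other and below 0 with each of the other 6 members, which all correlate above 0 among themselves.

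The genes whose levels were most like the members' mean over the 9 libraries were Ddx19b and Ppapdc1b (r = 0.99 each) and Sntb2, Galnt2 and Got1l1 (0.98 each). All 5 lie on chromosome 8, as do 15 of the 20 most alike, whereas 5.57% of the positioned genes tested are on that chromosome. Once F266A IP replicate 1 was left out, 1 of these 5 genes (Ddx19b) was still among the 5 most alike, and 13 of the 20 most alike were on chromosome 8. The mean profile of the members, centred on 0 in log2, was -0.30 to -0.06 in the empty vector and WT libraries, and in the F266A line it was 0.41 for the input and -0.13 and 0.72 for the IPs. Within that mean Col4a1 and Col4a2, both on chromosome 8, moved most. Their limma differences between F266A and the empty vector were 1.79 and 2.09, and those of the other members -0.63 to 0.50. Ddx19b, a DEAD-box helicase gene, had RPKM of 2.77, 3.77 and 3.57 in the empty vector line, 3.04, 3.66 and 3.81 in the WT line, and 5.99, 3.88 and 8.02 in the F266A line. As for Lama1, the F266A input and IP replicate 2 were the highest, and replicate 1 was close to the WT IPs.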

How the data were processed

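RNA of 3 mouse ESC lines was measured in 3 input and 6 RIPiT-seq IP libraries, grouped by their deposited titles. Reads were mapped by the authors with TopHat 1.1.3 on mm9, and RPKM per RefSeq gene symbol, from a script of their own, were deposited. RPKM are already divided by transcript length and mapped reads, so the share of reads on genes (20.1% to 22.6% in inputs, 27.2% to 29.5% in IPs) remains in them. Depth was estimated from the value of 1 read and covers counting error only. The library kit is not stated to keep strand, so reads of overlapping genes cannot be told apart.

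RPKM are not counts. Values were log2 (RPKM + 1), which understates changes of low genes, and were tested two-sided over the 9787 genes that had 2 or more libraries with an RPKM of 1 or higher, with lmFit, contrasts and eBayes with trend of limma 3.58.1 under R 4.3.3. Line and fraction were terms (5 residual degrees of freedom), the line-by-fraction groups were used for enrichment differences, and the threshold was a Benjamini-Hochberg adjusted p of 0.05. Tables used Python 3.11.15, numpy 2.4.6 and pandas 2.3.3. On simulated F266A minus empty vector data with 50 genes changed at each size, the fit recovered 21 at a log2 change of 0.5, 47 at 1, 48 at 1.5 and 49 at 2, with 10 others among 9787. The simulated noise was independent between genes, and a change was the same in all F266A libraries. These rates therefore do not carry over to genes for which F266A IP replicate 1 stood apart.

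The members and lists were chosen with earlier results of these data known. Named genes were the 8 members, Lamb1, up to 3 genes past the threshold per list or the 2 highest where none passed, the 5 genes most like the members, and label checks. Serpinh1, P4ha2, Plod2, Agrn, Pth1r, the Y-linked genes and chromosome 8 were added after values were seen. Alternatives were other pseudocounts, filters, scalings, eBayes without trend, a replicate block, IPs alone and leaving out each library. Positions are from GENCODE M1 (mm9) and promoter sequences from RefSeq (GRCm38.p6).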

Additional observations from a re-analysis of the deposited data

Results flagged for a closer look

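The enrichment scores of Hspg2 were below 0 in both empty vector IPs (-0.20 and -0.05) and above 0 in both WT IPs (0.01 and 0.10) and both F266A IPs (0.02 and 0.04). The mean score was higher by 0.18 in WT and by 0.16 in F266A than in the empty vector line. These scores lie near 0, and each line's pair shares its input. In limma neither difference passed the threshold, and the sign pattern itself was not tested.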

How the results depend on the processing

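Of the 8 members, 5 passed in F266A minus empty vector, 2 with the IP libraries alone, and 3 to 8 when 1 library was left out (3 without the F266A input, 8 without F266A IP replicate 1). Between F266A and WT 5 passed, 3 without a filter on low values, 0 with the IPs alone, and 2 to 8 when 1 library was left out (2 without the WT input, the F266A input or F266A IP replicate 2, and 3 without WT IP replicate 2). Without the filter Col4a1 missed the threshold in both comparisons (limma adjusted p = 0.0648 and 0.120) and Col4a2 against WT (0.0929), at the same differences. The direction of every line difference of a member between F266A and another line held in every alternative run, apart from Sparc at 0.00 against the empty vector without F266A IP replicate 2. Enrichment differences did turn. For Col4a1, that of F266A minus empty vector went from -0.81 to 0.18 without F266A IP replicate 1. Between WT and the empty vector, Col4a2 lay between -0.04 and 0.40 when 1 library was left out, negative without WT IP replicate 1.
Between IPs and inputs, 2 members passed, 1 with centred libraries, 1 after quantile normalization and 1 with the same share of reads on genes, a scaling chosen after seeing the data, and 1 to 5 when 1 library was left out. Nid1 turned to -0.05 after quantile normalization and -0.01 with the same share of reads, and Nid2 to -0.07 after quantile normalization. The enrichment rule was met by 0 members, by 1 (Nid2) with the mean of the 3 inputs as common input, and by 0 to 2 when 1 library was left out, where Lama1 and Hspg2 met it without WT IP replicate 1, Col4a1 and Col4a2 without WT IP replicate 2, and Lamc1 without F266A IP replicate 2. Of the 5 genes most like the members, 2 stayed after quantile normalization and 1 without F266A IP replicate 1, an alternative chosen after seeing the data. The cause was not tested.
Over all genes, 1635 passed between F266A and the empty vector, 907 at an RPKM of at least 5, 447 with IPs alone and 804 to 2531 when 1 library was left out. Between F266A and WT these counts were 976, 581, 114 and 293 to 1800, and for WT minus empty vector 17, 10, 0 and 0 to 61, with 27 after quantile normalization. Between IPs and inputs they were 6297, 3168 at an RPKM of at least 5, 880 with centred libraries, 616 after quantile normalization, 678 with the same share of reads and 3835 to 6595 when 1 library was left out. Enrichment differed for 0 genes, for 33, 45 and 22 without a filter (WT minus F266A, WT minus empty vector, F266A minus empty vector), for 88 in the last at a pseudocount of 0.1, and for 2 in the first without F266A IP replicate 2.
With the replicate number as a block, 5 members passed in each F266A comparison, 0 for WT minus empty vector and 2 for IP minus input, and no call changed for a member. The numbers share no stated origin, and the gaps between IP replicates 1 and 2 correlated across genes by 0.11 (empty vector and WT), 0.01 (empty vector and F266A) and 0.26 (WT and F266A). The inputs have no replicates, and the low collagen IV levels rest on few reads.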
